A study of Bos taurus with 10 samples.

Results

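Genes of Toll-like receptor and NF-kB signalling were compared between mammary tissue from bovine udder glands that neighbored an E. coli infected one and tissue from healthy animals. Members were taken from a fixed list of 52 genes in 4 roles: receptors and co-receptors, adaptors and kinases, NF-kB subunits, and IkB proteins with feedback inhibitors. A probe set was included when its only gene symbol in the platform annotation was a listed gene. This gave 52 probe sets for 34 genes, out of 24016 probe sets on the array besides its controls. The other 18 listed genes were matched by no such probe set and were not analysed here: LY96, NOD1, NOD2, TLR1, TLR7, TLR8 and TLR10 among the receptors, IRAK2, MAP3K7, TBK1, TICAM1, TIRAP and TRAF2 among the adaptors and kinases, the subunits REL and RELB, and the inhibitors IRAK3, TNFAIP3 and TNIP2.

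The animals were primiparous, midlactating German Holstein Frisian cows without a history of clinical mastitis, all synchronized in estrus with Cloprostenol and milked out under oxytocin before the trial. The neighboring group comprised 5 cows that received 500 CFU of the mastitis isolate E. coli 1303 in 2 ml of saline in a single udder gland, and the tissue came from glands without bacteria, 24 h later. The control group comprised 5 healthy, untreated cows. The 10 arrays thus came from 10 separate cows. Another gland of each inoculated cow had received sterile saline, and neighboring samples pooled saline-treated with untreated tissue, while neighboring 4 was a single untreated gland. Controls were likewise pooled from a pair of glands, except control 3 and control 5. An effect of the saline and one of the distant infection can therefore not be told apart in the pooled samples.

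Toll-like receptors recognize conserved microbial molecules. TLR4, which acts with CD14 and LY96, binds the lipopolysaccharide of Gram-negative bacteria such as E. coli, after the plasma protein LBP has handed it to CD14. The adaptor MYD88 and the IRAK kinases pass the signal through the ubiquitin ligase TRAF6 and the TAK1 complex to the IkB kinase complex of CHUK, IKBKB and IKBKG, whose activity releases NF-kB from its IkB inhibitors by protein modification. Transcript levels of the members therefore say nothing direct on NF-kB activity. Several members, among them NFKBIA, NFKB2, TNIP1, BIRC3 and TRAF1, are themselves known target genes of NF-kB.

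All values are RMA values on a log2 scale, on which a difference of 1 is a 2-fold change. Array medians lay between 6.25 and 6.27, and precision is limited by how few arrays there are. The fit used 8 arrays, 4 per group. Neighboring 5 was left out as a biological outlier that grouped with the controls, and control 3 as a technical outlier, a choice taken over from the published methods. Setting aside an array because it resembles the other group favours a difference, so each call is given with all 10 arrays as well, for gene lists as a count. Array hybridization controls, transcripts added before hybridization, averaged 10.20 to 10.43 on the 4 neighboring arrays of the fit. They averaged 10.42 to 10.84 on the 4 control arrays of the fit, and 10.65 on neighboring 5. Markers of luminal mammary epithelium, the caseins included, were present in every sample: 10 of 12 were measured, and the log2 of their summed values, to which the bright milk protein probe sets contribute most, was 17.14 to 17.21 on neighboring and 17.14 to 17.17 on control arrays of the fit.

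In neighboring glands the co-receptor CD14 fell 2.11-fold, 7 members of the signalling cascade and its inhibitors rose by modest factors between 1.28-fold and 1.61-fold, and most receptors, adaptors and NF-kB subunits did not pass the test. Of the 34 genes, 31 passed the filter, which removed the dimmest 40% of probe sets by their mean on the 10 arrays. Each gene was represented by its brightest kept probe set. For NFKBIB, 1 of the 7 that rose, a dimmer kept probe set fell (adjusted p = 0.0186), so its direction is not settled. Limma called 8 of 31 at an adjusted p under 0.05 (25.8%), against 31.6% of all 7055 genes tested. Of the 31 members 7 rose, against 20.2% of all genes, and 1 fell, against 11.5% of all genes. The share of members called was thus no higher than that of genes in general.

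The 31 differences had a median of 0.22, against 0.06 over all genes, and 26 of 31 were above 0, against 3963 of 7055. On all 10 arrays the median was 0.18, against 0.05, and 24 of 31 were above 0, against 4013 of 7055. The members lay on median 0.28, 0.10, 0.27 and 0.13 above the control mean of the fit on neighboring 1 to 4. This median was 0.03 on neighboring 5, and 0.14 on control 3, where 23 of 31 members lay above that mean. Values of the 4 neighboring and the 4 control arrays did not overlap for 11 members (35.5%), against 33.5% of all genes. Without overlap 9 of 31 members were higher (29.0%), against 21.1% of all genes, and 2 of 31 lower (6.45%), against 12.4%. CD14 was the 1 member with a difference of over 2-fold, and at the stricter threshold of the study, an adjusted p under 0.01 and over 2-fold, limma called 0 members, against 3.26% of all genes, while 14 members had an unadjusted p under 0.05. On all 10 arrays 5 of 31 members were called (16.1%), against 13.3% of all genes: 4 rose (CHUK, TRAF1, NFKB2 and NFKBIB, against 8.26% of all genes) and CD14 fell (against 5.02%).

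**Figure D1:**
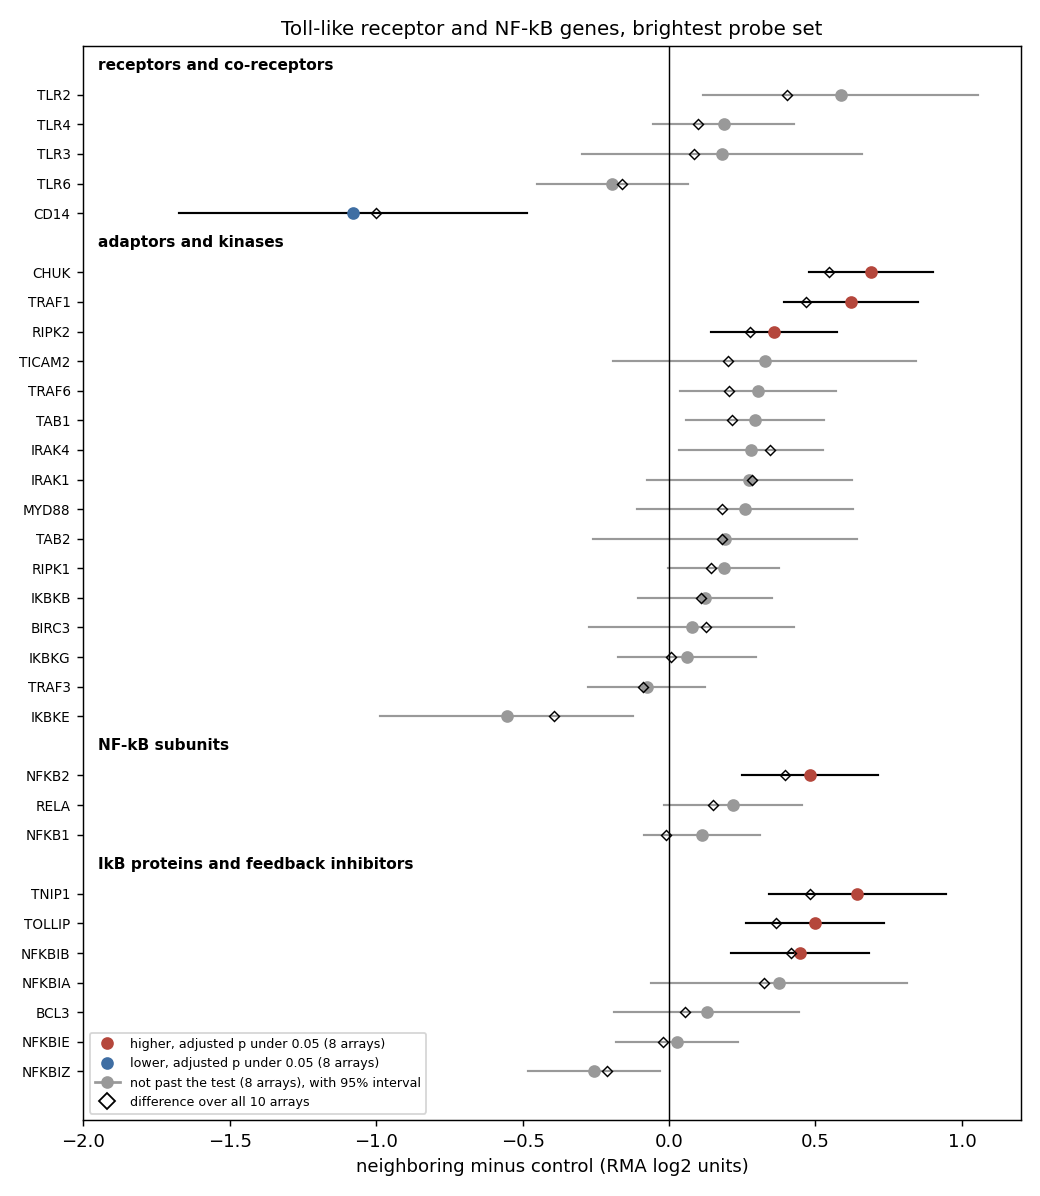
Difference between neighboring and control arrays (RMA log2 units, x axis) for the 31 member genes that passed the filter, ordered by role on the y axis. Circles and 95% intervals are from the 8 arrays of the fit and open diamonds from all 10 arrays. CD14 lies at −1.08, and 7 members from 0.36 to 0.69 pass the test.

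Most of these calls depended on the arrays entered. With neighboring 5 alone put back 2 members were called, CHUK (adjusted p = 0.0459) and TRAF1 (adjusted p = 0.0483), while 11 had an unadjusted p under 0.05. With control 3 alone put back 11 were called, including all 8. With the hybridization controls as a covariate limma called 0 members (7 at an unadjusted p under 0.05), beside 251 of 14409 probe sets in place of 4283. The SE of all 8 rose, from 0.096 to 0.174 for CHUK and from 0.268 to 0.482 for CD14. With the covariate CHUK differed by 0.67 (0.69 without), TRAF1 by 0.69 (0.62), NFKB2 by 0.497 (0.48), NFKBIB by 0.52 (0.45) and RIPK2 by 0.41 (0.36). CD14 differed by −0.997 (−1.08), TNIP1 by 0.47 (0.64) and TOLLIP by 0.32 (0.50). The hybridization control signal differed between the groups, so this fit separates it poorly from the group. Its part in the results was not tested beyond this fit.

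Receptors and co-receptors were represented by 5 genes, of which CD14 fell (1 of 5, against 11.5% of all genes) and 4 did not pass. CD14, which hands lipopolysaccharide to TLR4, read 10.36, 9.97, 9.54 and 9.003 on neighboring 1 to 4 and 10.35 on neighboring 5, against 10.80, 10.60, 10.51 and 11.29 on controls 1, 2, 4 and 5 and 11.03 on control 3. Every neighboring array lay below every control array, also with all 10 arrays. The groups averaged 9.72 ± 0.58 and 10.80 ± 0.35 (SD, n = 4 each), a difference of −1.08 ± 0.27 (SE) or 2.11-fold lower (adjusted p = 0.0142), and −0.999 ± 0.25 on all 10 arrays (adjusted p = 0.0324). A second, dimmer probe set of CD14 fell by 0.99 ± 0.27 (adjusted p = 0.0215). With all 10 arrays it differed by −0.86 (adjusted p = 0.0541), with neighboring 5 among the controls.

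CD14 is abundant on monocytes and macrophages. Of 14 markers fixed for these cells 8 were measured: the scavenger receptor MSR1 fell by 1.90 ± 0.30 (SE, adjusted p = 0.00161) and AIF1 by 0.67 ± 0.15 (adjusted p = 0.00786), while CD68 (0.10 ± 0.19), CSF1R (−0.07 ± 0.15), C1QA (0.14 ± 0.19), C1QB (0.34 ± 0.19), C1QC (0.19 ± 0.15) and FCGR1A (0.13 ± 0.12) did not pass. The log2 of the summed values of the 8 was 10.76 to 11.43 in neighboring glands and 11.17 to 11.38 in controls, on the arrays of the fit. Among the neighboring arrays of the fit it was lowest on neighboring 1, where CD14 was highest. On control 3 it was 10.501, below every neighboring array. Over all 10 arrays MSR1 differed by −1.59 (adjusted p = 0.0227) and AIF1 by −0.32 (adjusted p = 0.379). None of these markers was at 0, and the part of macrophage content in the CD14 difference was not tested. In tissue of mixed cells, fewer cells of a type and less RNA per cell cannot be told apart.

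TLR4, the lipopolysaccharide receptor, read 8.24, 8.49, 8.39 and 8.06 on neighboring 1 to 4 and 8.01 on neighboring 5, against 8.09, 8.04, 8.19 and 8.11 on controls 1, 2, 4 and 5 and 8.27 on control 3. The groups overlapped, with neighboring 4 among the lowest arrays and neighboring 2 the highest. The difference was 0.19 with a 95% interval of −0.05 to 0.43 (adjusted p = 0.214), so a change of over 2-fold in TLR4 lay outside the interval.

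TLR2, the receptor for bacterial lipoproteins, read 9.09, 9.44, 8.84 and 9.10 on neighboring 1 to 4 and 8.74 on neighboring 5, against 8.64, 7.88, 8.67 and 8.94 on controls 1, 2, 4 and 5 and 9.07 on control 3. Control 2 was far below the other controls, and the groups overlapped. The difference of 0.59 ± 0.21 (SE) did not pass (adjusted p = 0.0595). It passed without control 5 (0.72, adjusted p = 0.0364), was 0.37 without control 2 and was 0.40 on all 10 arrays (adjusted p = 0.200).

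TLR3, a receptor for double-stranded RNA, differed by 0.18 ± 0.22 (SE) and TLR6, a partner of TLR2, by −0.19 ± 0.12, neither past the test. The flagellin receptor TLR5, with a mean of 4.59 over the 10 arrays, and the DNA receptor TLR9, with 5.59, lay under the filter, as did both dimmer probe sets of TLR3. In the fit without a filter, which called 20.3% of all 24016 probe sets, TLR5 differed by −0.27 ± 0.10 (adjusted p = 0.0809) and TLR9 by −0.12 ± 0.15 (adjusted p = 0.599). Upstream of the receptors LBP, the lipopolysaccharide carrier, rose 4.41-fold (10.92 ± 0.83 in neighboring glands and 8.78 ± 0.78 in controls, SD, n = 4 each, adjusted p = 0.00579). On neighboring 5 LBP stood at 8.36, between the controls, and on all 10 arrays its difference was 1.56 (adjusted p = 0.0815). Of the 3 measured genes of lipopolysaccharide capture and recognition, LBP was thus higher, CD14 lower and TLR4 not past the test.

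Among 16 measured adaptors and kinases 3 rose, CHUK, TRAF1 and RIPK2 (18.8%, against 20.2% of all genes), and 13 did not pass. Their median difference was 0.27, against 0.06 over all genes. CHUK, the IkB kinase subunit alpha, read 8.19, 7.94, 8.07 and 8.08 on neighboring 1 to 4 and 7.42 on neighboring 5, against 7.47, 7.24, 7.41 and 7.41 on controls 1, 2, 4 and 5 and 7.44 on control 3. The 4 arrays of the fit lay above all controls, and neighboring 5 lay within the control range. The groups averaged 8.07 ± 0.10 and 7.38 ± 0.10 (SD, n = 4 each), 1.61-fold higher (adjusted p = 0.000957). Over all 10 arrays it was 0.55 ± 0.14 (SE, adjusted p = 0.0313). The catalytic partner IKBKB differed by 0.12 (95% interval −0.11 to 0.35) and the regulatory subunit IKBKG by 0.06 (−0.17 to 0.30), neither past the test, so within the IkB kinase complex CHUK was the 1 subunit called. A test of the difference between subunits was not made.

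TRAF1, an adaptor of the TNF receptor family, read 7.44, 7.33, 7.59 and 7.56 on neighboring 1 to 4 and 6.93 on neighboring 5, against 6.82, 6.78, 6.78 and 7.05 on controls 1, 2, 4 and 5 and 7.07 on control 3. Again neighboring 5 was the 1 neighboring array within the control range. TRAF1 rose 1.54-fold (0.62 ± 0.10, SE, adjusted p = 0.00227, and 0.47 ± 0.13 with adjusted p = 0.0414 on all 10 arrays).

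RIPK2, the kinase downstream of NOD1 and NOD2, read 8.74, 8.51, 8.55 and 8.52 on neighboring 1 to 4 and 8.29 on neighboring 5, against 8.36, 8.21, 8.13 and 8.19 on controls 1, 2, 4 and 5 and 8.35 on control 3. It rose 1.28-fold (0.36 ± 0.10, SE, adjusted p = 0.0199), the smallest of the called changes. The call was lost without control 4 (adjusted p = 0.0567) and on all 10 arrays (0.27, adjusted p = 0.0791).

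**Figure D2:**
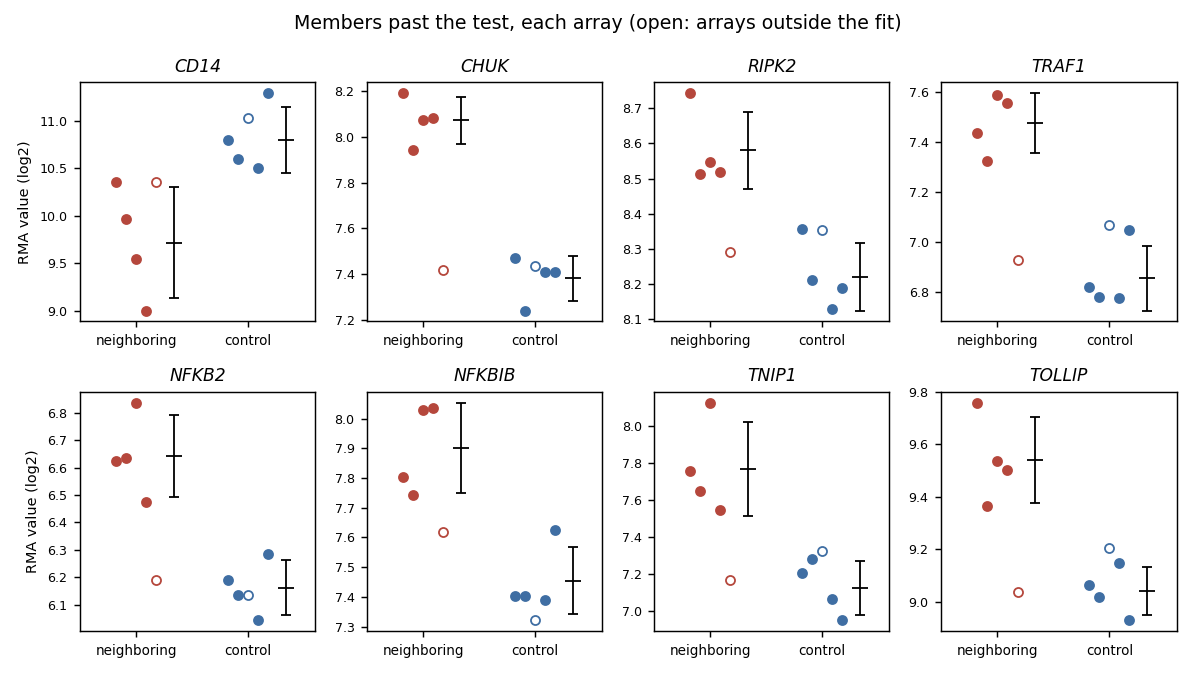
RMA values (log2, y axis) of the 8 members past the test on each array, neighboring left and control right. Filled points entered the fit, open points are neighboring 5 and control 3, and bars give mean ± SD over the 4 arrays per group. Neighboring 5 lies within the control range for each of the 7 members that rose, and below all controls for CD14.

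MYD88, the adaptor of most Toll-like receptors, read 10.10, 9.29, 9.70 and 9.46 on neighboring 1 to 4 and 9.40 on neighboring 5, against 9.32, 9.21, 9.38 and 9.59 on controls 1, 2, 4 and 5 and 9.53 on control 3. Neighboring 1 was the highest array and the groups overlapped. The difference was 0.26 with a 95% interval of −0.11 to 0.63 (adjusted p = 0.255). TICAM2, the bridging adaptor of TLR4, differed by 0.33 ± 0.23 (SE), the ligase TRAF6 by 0.30 ± 0.12, the TAK1 partners TAB1 by 0.29 ± 0.11 and TAB2 by 0.19 ± 0.20, the kinases IRAK4 by 0.28 ± 0.11, IRAK1 by 0.27 ± 0.16 and RIPK1 by 0.19 ± 0.09, and the ubiquitin ligase BIRC3 by 0.08 ± 0.16. None of these passed. TRAF3, an adaptor of the interferon branch, differed by −0.08 ± 0.09. IKBKE, an IkB kinase-related kinase of that branch, had the lowest value of the role (−0.55 ± 0.20, adjusted p = 0.0543). IKBKE passed without neighboring 2 (−0.72, adjusted p = 0.0127) or with control 3 put back (−0.57, adjusted p = 0.0364). On all 10 arrays it differed by −0.39 (adjusted p = 0.232), with neighboring 5 at 7.26, higher than 4 of the 5 controls. TRAF6 likewise passed without neighboring 2 (0.39, adjusted p = 0.0304). IRAK4 passed with control 3 put back and on all 10 arrays with array weights, but not on all 10 without weights (0.34, adjusted p = 0.0575). TRAF5, a further adaptor, lay under the filter.

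Of the NF-kB subunits 3 were measured, and NFKB2 rose (1 of 3, against 20.2% of all genes). NFKB2, the precursor p100 of the alternative pathway, read 6.62, 6.64, 6.84 and 6.47 on neighboring 1 to 4 and 6.19 on neighboring 5, against 6.19, 6.13, 6.04 and 6.28 on controls 1, 2, 4 and 5 and 6.13 on control 3. The arrays of the fit did not overlap. The means were 6.64 ± 0.15 and 6.16 ± 0.10 (SD, n = 4 each), 1.39-fold higher (adjusted p = 0.00771). The difference over all 10 arrays was 0.40 ± 0.12 (SE, adjusted p = 0.0463).

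RELA, the p65 subunit of the canonical pathway, read 9.59, 9.16, 9.41 and 9.39 on neighboring 1 to 4 and 9.23 on neighboring 5, against 9.22, 9.18, 9.11 and 9.17 on controls 1, 2, 4 and 5 and 9.35 on control 3. It differed by 0.22 (95% interval −0.02 to 0.45, adjusted p = 0.142). NFKB1, the precursor of p50, read 7.77, 7.85, 7.79 and 7.70 on neighboring 1 to 4 and 7.41 on neighboring 5, against 7.75, 7.73, 7.60 and 7.58 on controls 1, 2, 4 and 5 and 7.91 on control 3. Its difference of 0.11 (95% interval −0.08 to 0.31, adjusted p = 0.354) turned to −0.0089 on all 10 arrays, since neighboring 5 was the lowest and control 3 the highest array.

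**Figure D3:**
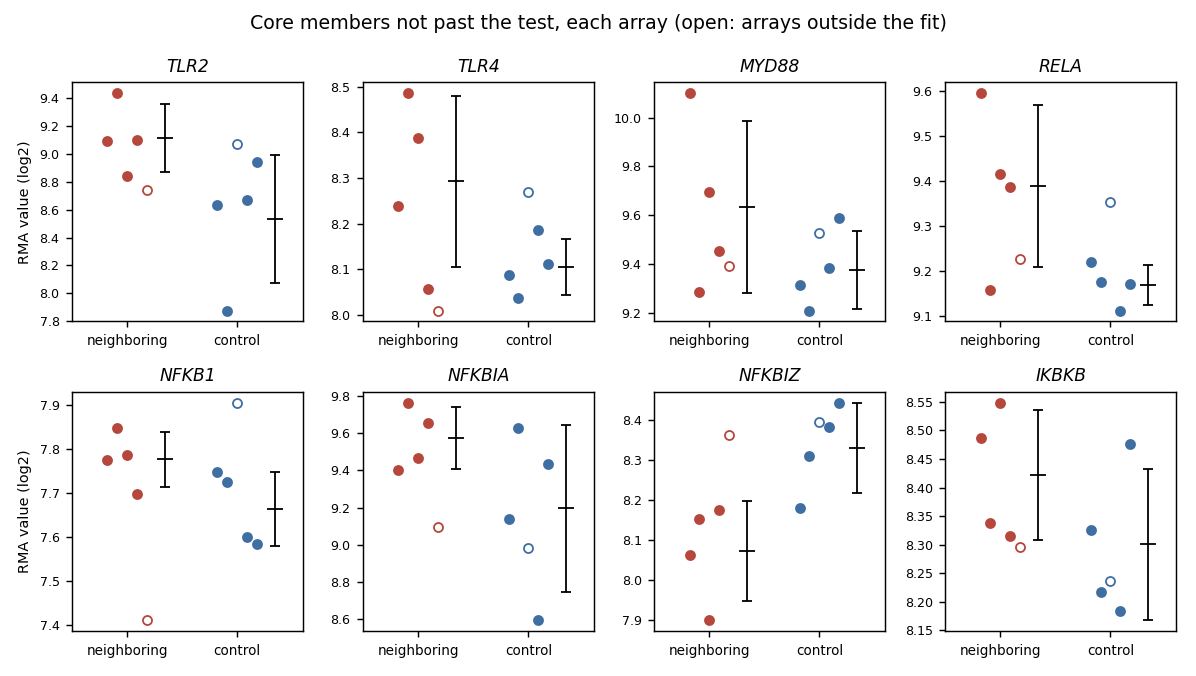
RMA values (log2, y axis) of 8 members that did not pass the test on each array, neighboring left and control right. Filled points entered the fit, open points are neighboring 5 and control 3, and bars give mean ± SD over the 4 arrays per group. Both groups overlap for TLR2, TLR4, MYD88, RELA, NFKB1, NFKBIA and IKBKB, and NFKBIZ lies lower on the 4 neighboring arrays of the fit (8.07) than on those of the controls (8.33).

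Among IkB proteins and feedback inhibitors 3 of 7 rose, TNIP1, TOLLIP and NFKBIB, against 20.2% of all genes, and 4 did not pass. With all 10 arrays 1 of 7 rose, NFKBIB, whose probe sets ran in opposite directions. The median difference of the role was 0.38 with the brighter probe set of NFKBIB and 0.13 with its dimmer one, a choice added after seeing the data. TNIP1, the partner of the deubiquitinase TNFAIP3, read 7.76, 7.65, 8.13 and 7.54 on neighboring 1 to 4 and 7.16 on neighboring 5, against 7.20, 7.28, 7.07 and 6.95 on controls 1, 2, 4 and 5 and 7.33 on control 3. It rose 1.56-fold (0.64 ± 0.14, SE, adjusted p = 0.00682), with neighboring 5 amid the controls. With all 10 arrays it was 0.48 higher (adjusted p = 0.0609). A dimmer probe set also rose, by 0.36 ± 0.10 (adjusted p = 0.0259, and 0.287 on all 10 arrays). The third, under the filter, differed by 0.02.

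TOLLIP, an inhibitor of IRAK signalling, read 9.76, 9.37, 9.54 and 9.502 on neighboring 1 to 4 and 9.04 on neighboring 5, against 9.06, 9.02, 9.15 and 8.93 on controls 1, 2, 4 and 5 and 9.21 on control 3. It rose 1.41-fold (0.50 ± 0.11, SE, adjusted p = 0.00695) and was 0.37 on all 10 arrays (adjusted p = 0.0726).

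NFKBIB, the inhibitor IkB beta, gave opposite results on its probe sets. The brighter read 7.80, 7.74, 8.03 and 8.04 on neighboring 1 to 4 and 7.62 on neighboring 5, against 7.40, 7.40, 7.39 and 7.62 on controls 1, 2, 4 and 5 and 7.32 on control 3. It rose 1.36-fold (0.45 ± 0.11, SE, adjusted p = 0.0120, and adjusted p = 0.0322 on all 10 arrays). The dimmer, with a mean of 5.79 close to the filter at 5.71, fell by 0.36 ± 0.10 (adjusted p = 0.0186, and adjusted p = 0.149 on all 10 arrays). The direction for the gene is therefore not settled.

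NFKBIA, the inhibitor IkB alpha and a rapid NF-kB target, read 9.40, 9.77, 9.47 and 9.66 on neighboring 1 to 4 and 9.10 on neighboring 5, against 9.14, 9.63, 8.59 and 9.43 on controls 1, 2, 4 and 5 and 8.98 on control 3. The control values spread more than 1 unit, from 8.59 to 9.63. The difference was 0.38 with a 95% interval of −0.06 to 0.81 (adjusted p = 0.173). NFKBIZ, a nuclear IkB protein that acts on a subset of NF-kB targets, had a brighter probe set at −0.26 ± 0.10 (SE, adjusted p = 0.0806) and a dimmer one at 0.63 ± 0.29 (adjusted p = 0.130), with control 5 of the dimmer one at 6.30 and the other controls from 7.38 to 8.01. The brighter one passed with control 3 put back (adjusted p = 0.0491) and with cyclic loess (adjusted p = 0.0459). NFKBIE (0.03 ± 0.09) and BCL3 (0.13 ± 0.14) did not pass.

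Other probe sets of the members added 2 genes to those called. Of 43 member probe sets past the filter 10 rose and 3 fell (30.2%), against 29.7% of all 14409 probe sets. A dimmer probe set of BIRC3 rose by 0.44 ± 0.13 (SE, adjusted p = 0.0301) and one of IRAK4 by 0.34 ± 0.11 (adjusted p = 0.0432, and 0.0516 on all 10 arrays). That BIRC3 probe set read 7.39 to 7.72 on the 5 neighboring arrays and 6.83 to 7.39 on the 5 control arrays, without overlap although the nearest values both round to 7.39, with an adjusted p of 0.0525 on all 10. A dimmer probe set of IRAK1 spread from 5.81 to 8.08 among neighboring arrays of the fit and from 5.25 to 7.39 among controls and differed by 1.15 ± 0.55 (adjusted p = 0.138).

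**Figure D4:**
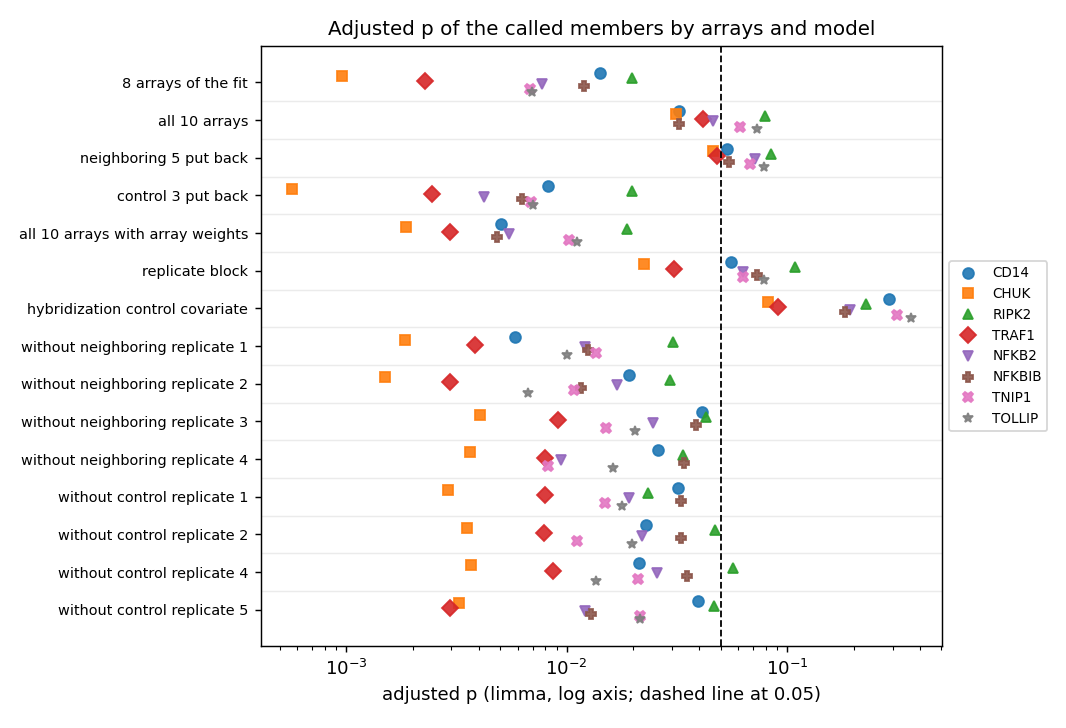
Adjusted p of limma (x axis, log scale) for the 8 called members, by the arrays entered or the model used (y axis), with a dashed line at 0.05. CHUK and TRAF1 stay under the line in each setting shown except the hybridization control covariate (0.0814 and 0.0910), and RIPK2 is also above it without control 4 (0.0567).

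Across arrays, the 7 members that rose lay on median 0.46 to 0.67 above the control mean of the fit on neighboring 1 to 4. On neighboring 5 this median was 0.04 and on control 3 it was 0.13. CD14 behaved otherwise, since on neighboring 5 it lay 0.44 below the control mean, as far as on neighboring 1. These values describe arrays of the same fit and bear no test.

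Genes around the members were taken from 6 further lists, whose counts stand against 20.2% of all genes higher and 11.5% lower, and on all 10 arrays against 8.26% and 5.02%. Of 8 measured genes of the IL-1 and TNF receptor branch 3 rose, and 1 of 8 on all 10 arrays. IL1RAP, the accessory chain of the IL-1 receptor, rose 2.10-fold (adjusted p = 0.000606, and 0.0276 on all 10 arrays). The lymphotoxin beta receptor LTBR, which acts upstream of NFKB2, rose 1.33-fold (adjusted p = 0.0121) and the death domain adaptor FADD 1.29-fold (adjusted p = 0.0299), and both calls were lost on all 10 arrays (0.152 and 0.0781). Of 10 genes of the MAP kinase and AP-1 branch 2 rose, and 1 on all 10 arrays. These were the transcription factor ATF2 (1.45-fold, adjusted p = 0.00405, and 0.0461 on all 10 arrays) and the kinase MAP2K3 (0.59 higher, adjusted p = 0.00193, and 0.101 on all 10 arrays).

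In the interferon regulatory factor branch 2 of 8 rose and 1 fell, and on all 10 arrays 0 rose and 1 fell. IRF8, a factor of myeloid and lymphoid cells, fell by 0.44 (adjusted p = 0.0118, and 0.0297 on all 10 arrays). IRF3 (1.36-fold, adjusted p = 0.0165) and STAT2 (1.43-fold, adjusted p = 0.0390) rose with the 8 arrays and not with all 10 (adjusted p = 0.0521 and 0.0710). A further 3 genes of this branch lay under the filter, of which 1 rose and 0 fell without a filter. This was IFNAR1, named after its value was seen (0.83 ± 0.23, SE, adjusted p = 0.0299, and 0.0665 on all 10 arrays). Of 15 ubiquitin-related and other regulators, not all of them inhibitors, 2 rose and 2 fell, and on all 10 arrays 0 rose and 1 fell. The call that was kept was the ligase PELI1 (fell by 0.44, adjusted p = 0.0183, and 0.0306 on all 10 arrays). The kinase subunit CSNK2A1 rose 1.56-fold (adjusted p = 0.00447, and 0.0919 on all 10 arrays), and so did the deubiquitinase CYLD, named after its value was seen (1.38-fold, adjusted p = 0.0197, and 0.0960 on all 10 arrays). COMMD1, which promotes RELA turnover, fell by 0.48 (adjusted p = 0.0164) but differed by −0.13 on all 10 arrays (adjusted p = 0.727), with control 3 at 6.66, below every neighboring array. Of 5 measured genes for lipopolysaccharide delivery and other pattern receptors LBP rose and 4 did not pass, and 0 of these 5 were called on all 10 arrays. CD180 and BPI lay under the filter. Without a filter CD180, with a mean of 4.01, fell by 0.39 (adjusted p = 0.0243, and 0.0490 on all 10 arrays). BPI differed by 0.52 ± 0.22 (SE) and did not pass (adjusted p = 0.122). Both were named after their values were seen.

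Inflammatory target genes of NF-kB formed the last list. Of 13 measured 1 rose, 2 fell and 10 did not pass, with a median difference of 0.11, against 0.06 over all genes. On all 10 arrays 1 rose and 1 fell. The mitochondrial superoxide dismutase SOD2 rose 3.40-fold (adjusted p = 0.000239, and 0.0227 on all 10 arrays), while the stress protein GADD45B fell by 0.65 (adjusted p = 0.00584, and 0.0406 on all 10 arrays) and the chemokine CCL5 by 0.77 (adjusted p = 0.00891, and 0.445 on all 10 arrays). A further 16 targets lay under the filter. Without a filter the neutrophil attractants CXCL8 (1.12 ± 0.25, SE, adjusted p = 0.0103) and CXCL2 (1.55 ± 0.43, adjusted p = 0.0295) rose and CXCL10 (fell by 0.80, adjusted p = 0.0236) and the prostaglandin synthase PTGS2 (fell by 0.73, adjusted p = 0.0254) fell, each with an adjusted p over 0.05 on all 10 arrays. TNF (0.15 ± 0.14), IL1B (−0.06 ± 0.14) and IL6 (0.38 ± 0.21, adjusted p = 0.215) did not pass. These 7 were named after their values were seen.

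Markers of several other cell types moved beside the members. Their counts stand against 20.2% of all genes higher and 11.5% lower, and on all 10 arrays against 8.26% and 5.02%. Of 7 measured endothelial and 2 measured B and plasma cell markers 0 were called. A further 3 B and plasma cell markers lay under the filter. Without a filter CD79A fell by 0.41 (adjusted p = 0.0265, and 0.181 on all 10 arrays), and MS4A1 and POU2AF1 did not pass. Of 13 neutrophil markers 3 were measured, and S100A8 (5.34-fold, adjusted p = 0.000361) and S100A12 (3.95-fold, adjusted p = 0.00104) rose, on all 10 arrays as well (adjusted p = 0.00157 and 0.00636). The remaining one, S100A9, differed by 0.17 ± 0.10 (SE) and did not pass (adjusted p = 0.221, and 0.108 on all 10 arrays). On the arrays of the fit the log2 of the 3 summed values was 8.63 to 9.88 in neighboring glands and 7.39 to 7.70 in controls, and it was 9.42 on neighboring 5, where the 7 members that rose lay within the control range, and 6.97 on control 3. Further neutrophil markers, CXCR1, MPO, ELANE, MMP9 and ITGAM, lay under the filter. Without a filter 0 of these 5 rose and 0 fell. Of 10 measured T and NK cell markers 4 fell, with summed values of 9.61 to 10.09 on neighboring arrays of the fit, 10.44 on neighboring 5 and 10.18 to 10.43 in the 5 controls (log2). On all 10 arrays the lowest adjusted p among these markers was 0.0701. Of 10 measured luminal epithelial markers 2 rose and 8 did not pass, and 1 of 10 rose on all 10 arrays. EPCAM rose 1.64-fold (adjusted p = 0.000580, and 0.0223 on all 10 arrays), and the keratin KRT19 rose 2.15-fold (adjusted p = 0.00602, and 0.0771 on all 10 arrays). Of the 10 luminal differences 5 were above 0 and 5 below.

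Myoepithelial and smooth muscle markers fell in 5 of 8 cases, and in 3 of 8 on all 10 arrays. Their summed values were 12.91 to 13.39 on neighboring arrays of the fit, 13.50 on neighboring 5 and 13.41 to 14.10 in the 5 controls (log2). Fibroblast markers fell in 3 of 7 cases and rose in 1, and on all 10 arrays 4 fell and 1 rose, with sums of 12.17 to 13.07 in the 5 neighboring samples and 13.19 to 13.75 in the 5 controls. Of 2 adipocyte markers FABP4 fell (adjusted p = 0.000772, and 0.128 on all 10 arrays), with sums of 11.38 to 11.92 on neighboring arrays and 12.62 to 13.04 on control arrays of the fit, but 12.86 on neighboring 5 and 11.80 on control 3. The other adipocyte marker past the filter, LIPE, differed by 0.28 ± 0.12 (SE) and did not pass (adjusted p = 0.101). A further 3 adipocyte markers lay under the filter. Without a filter CIDEC fell by 0.66 (adjusted p = 0.0157, and 0.0503 on all 10 arrays). ADIPOQ (−0.31 ± 0.14, SE) and LEP (−0.29 ± 0.11) did not pass. The part of these cell types in the member results was not tested.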

How the data were processed

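Tissue RNA of 10 cows was labelled (MessageAmp II) and measured on Affymetrix Bovine arrays. RMA, named by the submitters without a version, gave the log2 values that the authors deposited, 1 per probe set and array. Its quantile step would hide a shift shared by most transcripts. Arrays were grouped by their titles, since the source name of the control samples repeats that of the neighboring ones. Gene symbols came from the platform annotation, and genes were updated to current symbols through RefSeq gene identifiers (13263 of 13292 probe sets with 1 symbol). No sequence was used here.

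Differences were fitted with limma 3.58.1 in R 4.3.3 (lmFit, eBayes, Benjamini-Hochberg over all 14409 kept probe sets, two-sided), with 4 arrays per group. A filter on the mean over the 10 arrays (5.71) stood in for present calls. Genes were called at an adjusted p under 0.05, and each adjusted p in the text comes from limma. SE and 95% intervals are those of the moderated fit. Means and SD are over the 4 arrays per group. Named genes were the called members, CD14, TLR2, TLR4, MYD88, NFKB1, RELA, NFKBIA, NFKBIZ, and, for each further list, up to 3 called genes with the smallest adjusted p. The members and lists were chosen with earlier results of these data known. Alternatives covered the arrays entered, array weights, filter, scaling, variance model, replicate block, hybridization covariate, threshold, choice of probe set and each array left out in turn. The promoter motif search planned at the outset was not run, for want of sequences here.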

Additional observations from a re-analysis of the deposited data

Results flagged for a closer look

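In 2 of 30 groups of 5 arrays (15 named members, both groups) a single array stood far from the others, and chance alone sets apart about 1 in 20 such groups. CHUK on control 2 was the lowest control at 7.24, next to 7.41 on the nearest. NFKBIB on control 5 was the highest control at 7.62, next to 7.40 on the nearest, and equal to the 7.62 of neighboring 5 at this rounding.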

How the results depend on the processing

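Of the 31 measured members 7 rose and 1 fell with the 8 arrays. On all 10 arrays 4 rose and 1 fell. With neighboring 5 put back 2 rose and 0 fell. Control 3 put back gave 8 and 3, and cyclic loess 7 and 2. A covariate of hybridization control signal, and separately an adjusted p under 0.01 with over 2-fold, left limma with 0 members: 0 rose and 0 fell (7 and 14 members at an unadjusted p under 0.05). Leaving out each array in turn gave 6 to 8 higher and 1 to 2 lower. The second lower gene appeared without neighboring 2 and was IKBKE. NFKB1 turned to −0.0089 on all 10 arrays. The cause of these shifts was not tested. Other filters, median centring, robust variances and array weights kept all 8 calls. Median centring could change little, since the array medians already lay between 6.25 and 6.27. Array weights were lowest for neighboring 5 (0.38), so that fit stands near the one without it. The rule of the smallest p per gene cannot lose a called gene, and it added BIRC3 and IRAK4.

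With the replicate number as a block 2 rose and 0 fell (CHUK and TRAF1), and 1481 of 14409 probe sets were called in place of 4283. The numbers do not pair cows: deviations of same-numbered arrays correlated between −0.19 and 0.17, and 1 of 5 neighboring arrays matched its own number best. RMA compresses the differences of dim probe sets, such as those of TLR5 and TRAF5.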
